A study of Mus musculus with 2 samples.

Results

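Mature dendritic cells of a mouse melanoma, marked by Ccr7 and Fscn1, made up 69 of the 22284 kept cells of the series, with 39 in the knockout (KO) library and 30 in the wild-type (WT) library. They were gated on raw counts of unique molecular identifiers (UMIs, 1 per captured RNA molecule): at least 2 UMIs of Fscn1 and at least 2 of Ccr7, at most 1 UMI of Cd3d and Cd3e together, at most 1 of Cd79a and none of Ncr1, among cells with at least 1000 UMIs, at least 500 genes and at most 10% mitochondrial UMIs. Both libraries came from B16-F0 melanoma, a transplantable mouse tumour line, and the labels give the genotypes only as KO and WT, without the gene, the strain, the age or the number of animals behind each library. The design text describes a sort of CD45+ DAPI- cells, that is of live leukocytes, whereas the cell type label reads TIL-Treg. The cells described here are not T cells by their markers. With 1 library per genotype there is no replicate and no test between genotypes. Genotype, library, animal and tumour cannot be told apart.

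Dendritic cells take up antigen in a tissue, mature on danger or cytokine signals, and then stop sampling, raise costimulatory molecules and follow Ccl19 and Ccl21 through the receptor Ccr7 into lymphatic vessels. Fascin, the product of Fscn1, bundles actin in the long processes of such cells. In tumours, cells of this state are known for carrying both costimulatory and inhibitory ligands and for secreting Ccl22 and Ccl17, ligands of the receptor Ccr4 on regulatory T cells.

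The KO members held 505428 UMIs in all, with a median of 10516 per cell and a range of 3170 to 40628. The WT members held 438510 UMIs, with a median of 12303 and a range of 3500 to 48095. The median mitochondrial share was 1.52% in KO members and 2.12% in WT members. The libraries shared 42 of their deposited barcodes, none of them belonging to a member. Levels are given as CPM, the UMIs of a gene per 1000000 UMIs summed over the members of a library. Intervals are 95% exact intervals that cover counting error only, since the UMIs of 1 cell are not independent draws and the spread between animals is unknown.

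The gated cells carried the other markers of this state. Of the 3 marker genes outside the rule, Ccl22, Il4i1 and Cacnb3, 2 or more were present in 37 of 39 KO members and 28 of 30 WT members. Il4i1, a secreted amino acid oxidase that lies on the plus strand at chr7:44816387-44840809 (GRCm38), had a UMI in 36 KO and 29 WT members. Cacnb3, a calcium channel subunit at chr15:98630840-98644529, had a UMI in 37 KO and 25 WT members. Ccl22, at chr8:94745590-94751699, had a UMI in 29 KO and 24 WT members. After every cell was thinned to 3000 UMIs, with 0 members left out, Ccl22 was found in 53.8% of KO and 46.7% of WT members. The T gate, taken here as a free-RNA level, had the gene in 0.563% of KO and 0.630% of WT cells (median 6624 UMIs in KO and 6774.5 in WT). Before thinning the Ccl22 shares were 74.4% of KO and 80.0% of WT members, and 1.18% of KO and 1.46% of WT T-gate cells. The shares in members stood far above that level.

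Members near the threshold were few. Exactly 2 UMIs of Fscn1 or of Ccr7 were held by 5 KO and 5 WT members, which had 125 CPM of Ccl22 in KO and 546 CPM in WT. Cells with at least 3 UMIs of both genes numbered 34 in KO and 25 in WT, at 1083 CPM of Ccl22 in KO and 1037 CPM in WT. Just outside, with 1 UMI of one gene and at least 2 of the other, lay 1 KO and 5 WT cells. The lymphoid limits left out more cells: 31 KO and 43 WT cells passed on Fscn1 and Ccr7 but carried T, B or NK transcripts, and their medians were 21461 UMIs in KO and 35181 in WT.

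Members were weighed against 3 other dendritic gates of the same libraries. Type 1 conventional dendritic cells (cDC1), which specialise in cross-presenting antigen to CD8 T cells, were gated on Xcr1 and Clec9a and numbered 181 in KO and 169 in WT. Type 2 cells (cDC2), which present mainly to CD4 T cells, were gated on Cd209a and numbered 384 in KO and 235 in WT. Plasmacytoid dendritic cells (pDC) were gated on Siglech and numbered 70 in KO and 138 in WT. As the members were chosen by their transcripts, all values of members against these gates are descriptions with no test. A gene is called higher or lower here only where both libraries gave a difference of 1.5-fold or more whose interval did not reach equality.

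The maturation programme separated the members from both conventional gates. Of 22 genes of a mature dendritic list measured against each gate, with Fscn1 and Ccr7 left out, 22 were higher than in cDC1 cells and 22 higher than in cDC2 cells. The background of calls was 8.45% of 8288 genes higher and 12.3% lower against cDC1, and 7.96% of 8413 genes higher and 12.4% lower against cDC2. The median log2 ratio of the list over cDC1 was 4.95 in KO and 4.28 in WT, where all genes had -0.29 in KO and -0.28 in WT. The list was drawn up for this cell state with results of these data known, so its direction is no independent evidence.

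**Figure D1:**
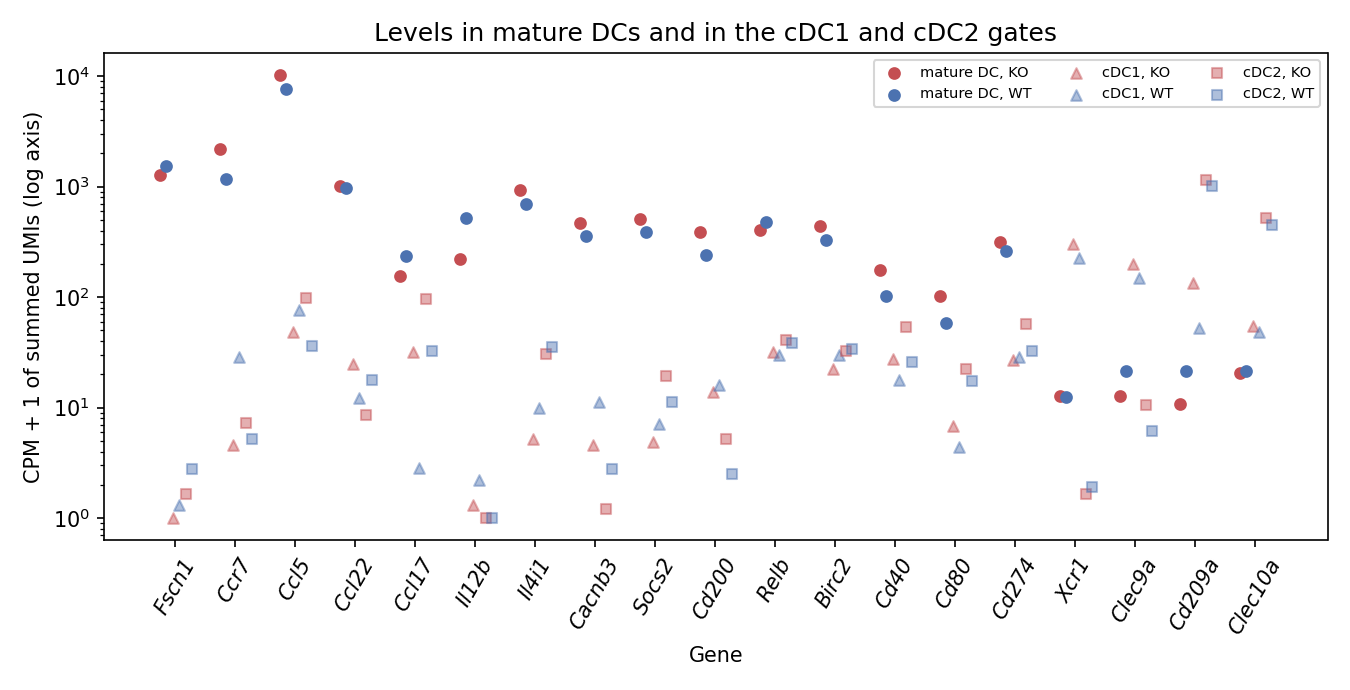
Levels in CPM of summed UMIs (plus 1, log axis) for 19 genes in mature dendritic cells (circles), cDC1 (triangles) and cDC2 gates (squares), with KO in red and WT in blue, 1 point per library. Mature markers from Fscn1 to Cd274 are highest in the members of both libraries, for Ccl5 at 10182 CPM in KO and 7583 CPM in WT, while Xcr1, Clec9a, Cd209a and Clec10a lie between 9.89 and 20.5 CPM in members.

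Single markers show the size of this step. Ccl22 stood at 1007 CPM in KO members, with 27.1% of the UMIs in 1 cell, against 23.8 CPM in KO cDC1 and 7.56 CPM in KO cDC2. In the WT library it stood at 971 CPM in members, against 11.1 CPM in cDC1 and 16.8 CPM in cDC2. Cacnb3 had 463 CPM in KO and 356 CPM in WT members, against 0.222 to 10.2 CPM across the 4 conventional gates. Socs2, a suppressor of cytokine signalling, reached 512 CPM in KO and 385 CPM in WT members, against 3.92 to 18.5 CPM in those gates. Other genes among the 20 with the largest ratio to the dendritic gates were Nudt17, Zmynd15, Serpinb6b, an inhibitor of serine proteases, Il2ra, the interleukin 2 receptor alpha chain, Ramp3, a partner of peptide hormone receptors, Adcy6, an adenylyl cyclase, Stat4, Serpinb9, an inhibitor of granzyme B, Cd63, Ankrd33b and Mmp25. Apol7c was among them too but came from 3 KO and 5 WT cells: 88.2% of its KO UMIs and 40.5% of its WT UMIs lay in 1 cell.

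The chemokines did not move as 1 group. Ccl5, which attracts T cells, was the most abundant of the listed chemokines among the members, at 10182 CPM in KO and 7583 CPM in WT, with 25.3% of the WT UMIs in 1 cell. The T gate, which also makes Ccl5, had 3551 CPM in KO and 3865 CPM in WT, and the cDC1 gate only 47.4 CPM in KO and 74.9 CPM in WT. Cxcl16 was higher in members too, with 829 CPM in KO and 577 CPM in WT members, against 41.2 to 64.3 CPM in the conventional gates. By contrast Cxcl9, an interferon-induced ligand of Cxcr3, was lower in members than in both gates, at 200 CPM in KO and 16.0 CPM in WT members, against 445 CPM in KO and 212 CPM in WT cDC1, and 66.3% of its KO member UMIs lay in 1 cell. In all, 6 of 13 chemokines were higher and 1 lower against cDC1, and 4 of 12 higher and 3 lower against cDC2.

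Il12b, which encodes the shared p40 subunit of interleukins 12 and 23, was found almost only in the members among the 6 gates. It had 222 CPM in KO and 522 CPM in WT members, against 0.327 CPM in KO and 1.23 CPM in WT cDC1 and no UMI in either cDC2 gate. Few cells supplied it, with 28.6% of the KO and 39.3% of the WT UMIs in 1 cell each. Il12a, the partner subunit of interleukin 12, and Il23a, that of interleukin 23, had no UMI in the members of either library. Il15 and its presenting receptor Il15ra were higher in members than in both gates, with Il15ra at 154 CPM in KO and 54.7 CPM in WT members.

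Costimulatory and inhibitory ligands were higher side by side. Of 8 costimulatory genes measured, 7 were higher and 1 lower against cDC1, and 5 higher and 1 lower against cDC2. Cd80, a ligand of Cd28, had 101 CPM in KO and 57.0 CPM in WT members, against 5.88 CPM in KO and 3.39 CPM in WT cDC1. The lower gene was Cd48, an adhesion molecule of the SLAM family, with 27.0% of its WT UMIs in 1 cell. Among the inhibitory and regulatory genes 7 of 16 were higher and 4 lower against cDC1, and 7 of 17 higher and 4 lower against cDC2. The genes higher in both were Cd274 (PD-L1), Pdcd1lg2 (PD-L2), Cd200, Il4i1, Socs2, Fas and Il2ra. Cd274 had 315 CPM in KO and 262 CPM in WT members, against 25.8 to 56.0 CPM in the conventional gates. Vsir, the checkpoint ligand VISTA, and Tnfaip8l2 were lower than in both gates, each on 5 to 15 UMIs per library.

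The NF-kB pathway, which drives maturation, was higher over much of its length. Against cDC1 16 of 22 genes were higher and 0 lower, and against cDC2 13 of 22 were higher and 0 lower. The subunit Relb stood at 400 CPM in KO and 479 CPM in WT members, against 28.7 to 40.0 CPM in the conventional gates. Map3k14, the kinase of the non-canonical branch that frees Relb, had 237 CPM in KO and 210 CPM in WT members, against 20.3 to 33.8 CPM. Birc2 and Traf1, regulators of that kinase and of TNF receptor signals, were in the mature list as well. Rela, the canonical subunit, differed less, with log2 ratios over cDC1 of 0.75 in KO and 0.80 in WT.

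Because marker genes were higher together, the promoters of those with a RefSeq entry were scanned on both strands for the general letters of an NF-kB site: GGG, any 5 bases, CC. The windows ran from 250 bases before to 50 bases after the start (RefSeq, GRCm38.p6), and 18 marker genes had one. The letters were present in 10 of these 18 genes (55.6%), and in 53.5% of 27025 genes with a promoter, a similar share. The tighter letters, GGG, any 2 bases, TTTCC, a special case of the general form, were found in 0 of 18 marker genes and in 1.89% of all genes. The promoters of Ccl22 and Fscn1 are shown as the chemokine and the gate gene with an entry, at chr8:94745434-94745733 and chr5:142960105-142960404, both on the plus strand, written 5′ to 3′ with matches in capitals. A match on the minus strand reads GG, any 5 bases, CCC here.
Ccl22: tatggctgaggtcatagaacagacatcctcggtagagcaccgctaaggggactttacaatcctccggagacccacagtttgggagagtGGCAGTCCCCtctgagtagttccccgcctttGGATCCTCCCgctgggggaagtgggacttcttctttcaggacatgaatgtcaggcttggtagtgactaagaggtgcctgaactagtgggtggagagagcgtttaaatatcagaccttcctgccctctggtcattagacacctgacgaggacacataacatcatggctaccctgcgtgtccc
Fscn1: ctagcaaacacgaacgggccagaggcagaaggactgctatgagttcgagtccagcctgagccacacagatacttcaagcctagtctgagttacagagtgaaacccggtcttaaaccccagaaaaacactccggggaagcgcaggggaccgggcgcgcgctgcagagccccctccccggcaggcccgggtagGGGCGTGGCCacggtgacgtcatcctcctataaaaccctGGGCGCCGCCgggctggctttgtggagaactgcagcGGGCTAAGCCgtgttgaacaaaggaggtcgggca
Ccl22 held 2 matches, whose first bases lay at -162 and -131 from the start, and Fscn1 held 3, at -59, -20 and 16. These are matches of letters, not binding sites.

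Lineage genes were lower in the members. Of 14 cDC1 genes 12 were lower than in cDC1 cells and 0 higher, and of 13 cDC2 genes 10 were lower than in cDC2 cells and 0 higher. The lists include Xcr1, Clec9a and Cd209a, on which those gates were set. Naaa, a lysosomal amidase of cDC1, had 180 CPM in KO and 75.3 CPM in WT members, against 1214 CPM in KO and 1016 CPM in WT cDC1, and 37.4% of its KO and 75.8% of its WT member UMIs lay in 1 cell. Clec10a, a lectin of cDC2, had 19.8 CPM in KO and 20.5 CPM in WT members, against 515 CPM in KO and 450 CPM in WT cDC2. The cDC1 regulators Batf3 and Id2 were an exception: both were higher than in cDC2 and not called against cDC1, with Batf3 at 226 CPM in KO and 239 CPM in WT members.

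Counted per cell over 6 cDC1 and 5 cDC2 markers, 10 KO and 7 WT members had more cDC1 than cDC2 UMIs. The reverse held for 13 KO and 14 WT members. No lineage UMI was found in 16 KO and 7 WT members, and 2 WT members had equal numbers. UMIs of both sets were held by 7 KO and 8 WT members, so these counts do not assign a lineage of origin.

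Genes of antigen handling were lower more often than higher against cDC2. Of 17 uptake and lysosome genes 9 were lower and 1 higher against cDC2, and 1 lower and 1 higher against cDC1. Among 15 MHC class II genes 6 were lower and 3 higher against cDC1, and 6 lower and 2 higher against cDC2. H2-DMb1, a subunit of the peptide exchanger DM, had 148 CPM in KO and 121 CPM in WT members, against 883 CPM in KO and 724 CPM in WT cDC1. March1, a ubiquitin ligase that takes class II molecules off the surface, had 23.7 CPM in KO and 18.2 CPM in WT members, against 105 CPM in KO and 102 CPM in WT cDC1. What was left of these came from few cells: 1 cell held 29.3% of the KO and 35.8% of the WT UMIs of H2-DMb1, and 83.3% of the KO and 87.5% of the WT UMIs of March1. Ciita, the master regulator of class II genes, was lower as well, with 35.0% of its KO UMIs in 1 cell. H2-Eb2 went the other way, at 103 CPM in KO and 109 CPM in WT members, against 1.54 to 3.59 CPM in the conventional gates.

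Class I presentation was higher more often than lower. Of 19 genes 5 were higher and 2 lower against cDC1, and 9 higher and 3 lower against cDC2. B2m, H2-K1, H2-D1, Tapbpl and the proteasome activator Psme2 were higher than in both gates, where counts of H2-K1 and H2-D1 are uncertain because class I genes share sequence. Calr and Pdia3, chaperones of the endoplasmic reticulum, were lower than in both.

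Genes of movement and survival differed in both directions. Of 20 migration genes 6 were higher and 3 lower against cDC1, and 7 higher and 6 lower against cDC2. Swap70, a regulator of actin at the membrane, had 364 CPM in KO and 317 CPM in WT members, against 30.2 to 46.6 CPM in the conventional gates. The integrin chain Itga4 was higher and the leukocyte integrins Itgal and Itgb2 lower than in both gates. Among 15 apoptosis genes the survival factors Bcl2a1b and Bcl2a1d, near-copies whose counts are uncertain between them, were higher together with Cflar, Fas and Pmaip1, whereas Bcl2 was lower, on 2 KO and 1 WT UMIs. Pattern recognition genes were lower in 4 of 14 and higher in 0 against either gate, and the cholesterol genes were lower in 2 of 15 against cDC1 and 4 of 15 against cDC2, with 0 higher. Glycolysis genes had 4 of 19 lower and 1 higher against cDC1, and 5 of 20 lower and 1 higher against cDC2. Over all genes 8.45% were higher and 12.3% lower against cDC1, and 7.96% higher and 12.4% lower against cDC2. The counts of migration and cholesterol genes lower against cDC1 lie near that share.

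**Figure D2:**
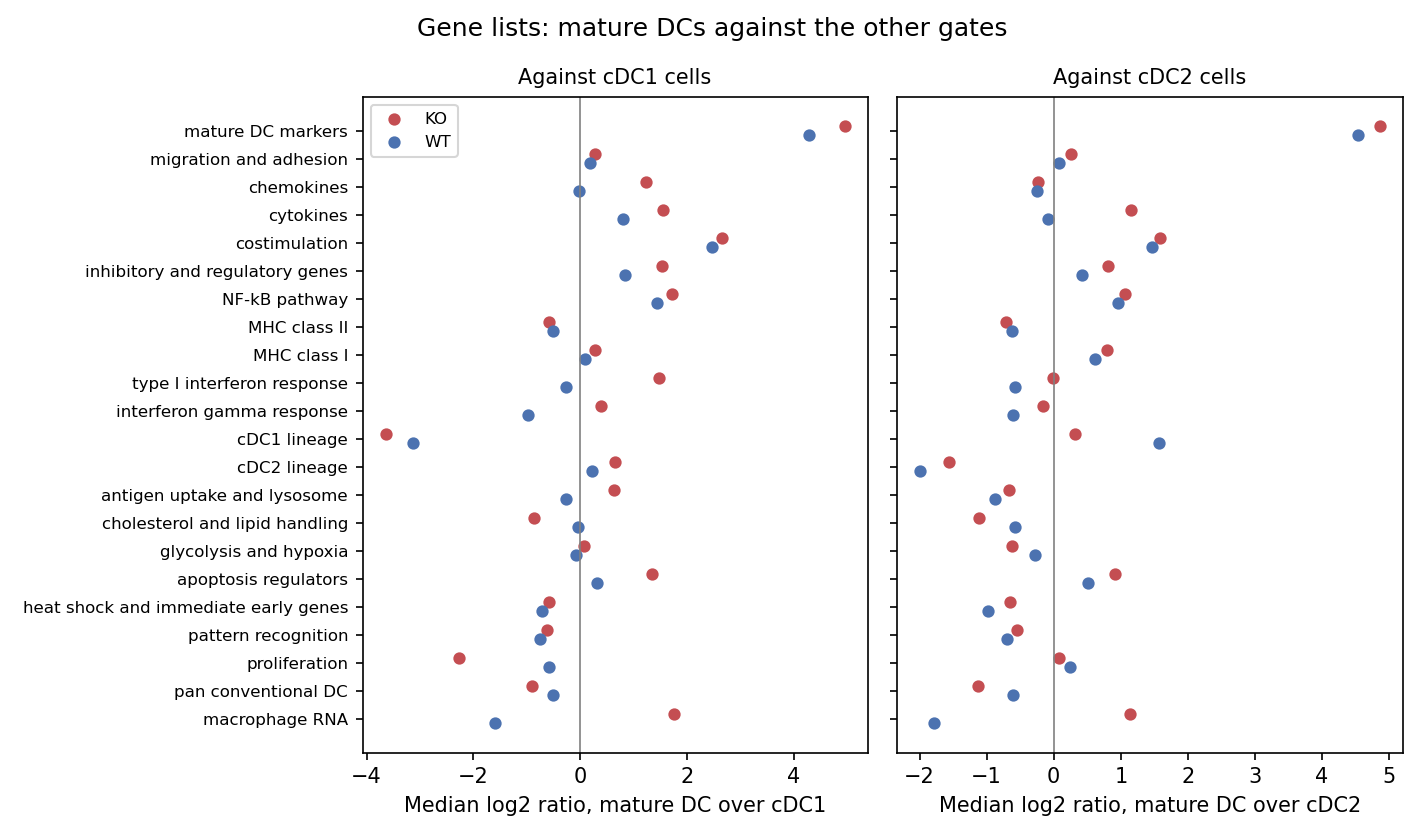
Median log2 ratio of each gene list in mature dendritic cells over the cDC1 gate (left) and over the cDC2 gate (right), 1 point per library, with KO in red above WT in blue. The mature list lies at 4.95 in KO and 4.28 in WT over cDC1, the cDC1 lineage list at -3.64 in KO and -3.12 in WT, and most other lists lie within 2 log2 units of 0.

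The members differed widely among themselves in their chemokines. Per 10000 UMIs of a cell, Ccl5 ranged from 0 to 501 over KO members with a median of 48.0, and from 0 to 438 over WT members with a median of 39.5. Ccl22 ranged from 0 to 81.2 with a median of 2.71 in KO, and from 0 to 66.5 with a median of 3.18 in WT. Relb had a narrower range, at 0 to 12.8 with a median of 4.12 in KO, and 0.723 to 17.9 with a median of 4.54 in WT. Ccl17 had a UMI in 15 KO and 13 WT members, and 13 KO and 12 WT members held both Ccl17 and Ccl22. Il12b was seen in 13 KO and 8 WT members, of which all 13 and all 8 held Ccl5. Of the same cells 8 of 13 in KO and 8 of 8 in WT also held Ccl22. Cd274 and Pdcd1lg2 were found together in 21 KO and 11 WT members.

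**Figure D3:**
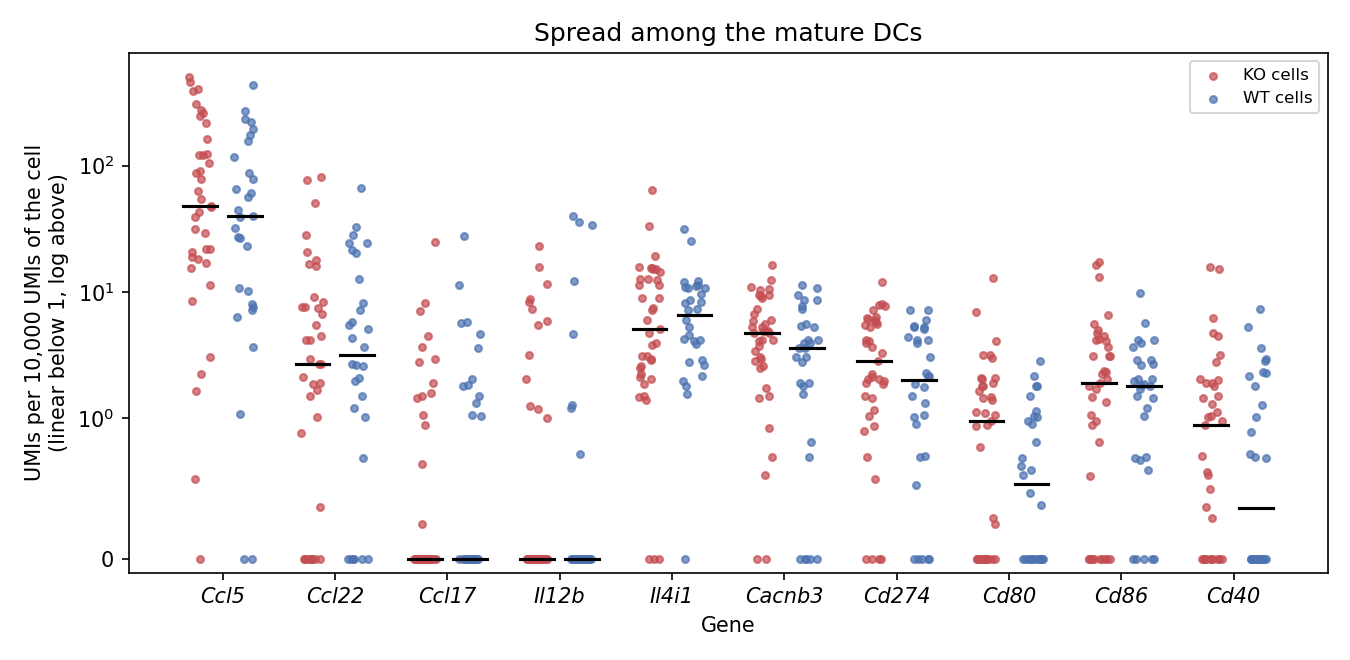
UMIs per 10000 UMIs of the cell for 10 genes in each of the 39 KO (red, left) and 30 WT members (blue, right), on an axis that is linear below 1 and logarithmic above, with a bar at the median. The ranges of the libraries overlap for every gene, Ccl5 from 0 to 501 in KO and 0 to 438 in WT, and most members lack Ccl17 and Il12b.

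The share of mature dendritic cells did not differ between the libraries beyond counting error. They were 0.350% of kept KO cells (95% Clopper-Pearson interval 0.249 to 0.479%) and 0.269% of kept WT cells (0.182 to 0.384%), a log2 ratio of 0.38 (-0.34 to 1.12). The B gate held 414 KO and 3418 WT cells, so shares of all cells also carry that gap. Outside the B gate the shares were 0.364% in KO and 0.388% in WT, a log2 ratio of -0.09 (-0.82 to 0.65). Among the mature, cDC1 and cDC2 gates together they were 6.46% in KO and 6.91% in WT. Intervals this wide leave shares both higher and lower in KO possible at this depth.

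Between KO and WT members 4669 genes with at least 20 UMIs over both libraries were measured. By the same size rule 362 (7.75%) were higher and 172 (3.68%) lower in KO, and the median log2 ratio of all genes was 0.10. The shares in the other gates were 3.4% higher and 4.32% lower in cDC1, 3.45% higher and 3.45% lower in cDC2, and 3.78% higher and 2.09% lower in pDC. Scaled by the median of ratios, which takes out that shift, the split was 259 higher and 255 lower, so the balance of directions depends on the scaling. Many calls rested on 1 cell: 275 of the 534 called genes had at least 25% of their UMIs in 1 cell of a library. A stricter set of 2536 genes, seen in at least 10 members of each library with under 25% in any 1 cell, was therefore added after the values had been seen. In it 174 genes (6.86%) were higher and 46 (1.81%) lower in KO.

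Some members also held UMIs of genes used as markers of other cell types. At least 3 UMIs of the marker set of macrophages, pDC, T, B, NK cells or neutrophils were found in 12 KO and 13 WT members. Without them 27 KO and 17 WT members remained, and 284 of 2623 genes (10.8%) were higher and 74 (2.82%) lower in KO. The macrophage markers summed to 704 CPM in KO and 525 CPM in WT members, with 45.2% of the KO and 52.6% of the WT UMIs in 1 cell, and 0 of the 6 were at 0 in either library. The pDC markers summed to 105 CPM in KO and 520 CPM in WT members, with 71.9% of the WT UMIs in 1 cell, and Siglech and Ly6d were at 0 in KO. At least 3 pDC UMIs were found in 6 KO and 9 WT members. Tcf4 is one of these markers and was also found in 11 KO and 8 WT of the remaining members, where Siglech and Ccr9 were at 0. Leaving out cells by this count can therefore take out mature dendritic cells without RNA of another cell type. T-cell markers summed to 25.7 CPM in KO and 31.9 CPM in WT, B-cell markers to 1.98 CPM in KO and 18.2 CPM in WT, NK markers to 1.98 CPM in KO and 50.2 CPM in WT, and neutrophil markers to 3.96 CPM in KO and 11.4 CPM in WT, with Ms4a1, Klrb1c, Prf1, S100a9 and Retnlg at 0 in both libraries. Langerhans-cell markers summed to 7.91 CPM in KO and 2.28 CPM in WT, melanoma markers to 1.98 CPM in KO and 2.28 CPM in WT, and erythroid markers to 3.96 CPM in KO and 2.28 CPM in WT. Calls without the members left out, called members carrying other RNA below, are given for the lists and for the genes described in most detail. No doublet caller was run.

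Costimulatory genes were higher in KO by their UMIs summed over members. Of 10 measured, of 13 listed, 6 were higher and 0 lower, with a median log2 ratio of 0.82. Over all genes 7.75% were higher and 3.68% lower. Cd86 had 291 CPM in KO and 164 CPM in WT members, a log2 ratio of 0.82 (0.41 to 1.25), and 0.23 without the members carrying other RNA. Its median per 10000 UMIs of a cell was close, at 1.90 in KO and 1.80 in WT. A UMI of Cd86 was found in 29 of 39 KO and 25 of 30 WT members. Cd80 had 101 CPM in KO and 57.0 CPM in WT, a log2 ratio of 0.82 (0.11 to 1.58), and 0.65 without them. Cd40, the receptor through which helper T cells license dendritic cells, had 176 CPM in KO and 100 CPM in WT, a log2 ratio of 0.81 (0.27 to 1.37). This was the one of the 3 still called without those members, at 1.18. Per 10000 UMIs Cd40 ranged from 0 to 15.6 with a median of 0.948 over KO members, and from 0 to 7.33 with a median of 0.357 over WT members, so the ranges overlapped and the highest cells were in KO.

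The other 3 higher costimulatory genes were ligands of the TNF family. Tnfsf9 (4-1BB ligand) had a log2 ratio of 0.82 (0.12 to 1.56), and Cd70 one of 1.27 (0.36 to 2.27) with 30.8% of its KO and 50% of its WT UMIs in 1 cell. Tnfsf4 (OX40 ligand) had 25 UMIs in 4 KO members, 80.0% of them in 1 cell, and 1 UMI in WT members, a log2 ratio of 4.44 (1.83 to 9.80). Over the list without the members carrying other RNA, 3 of 9 were higher, namely Cd40, Tnfsf9 and the uptake receptor Ly75, and 0 lower. The Il15 receptor chain Il15ra was likewise higher, with 154 CPM in KO and 54.7 CPM in WT members, a log2 ratio of 1.496 (0.82 to 2.22) and 1.67 without those members.

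**Figure D4:**
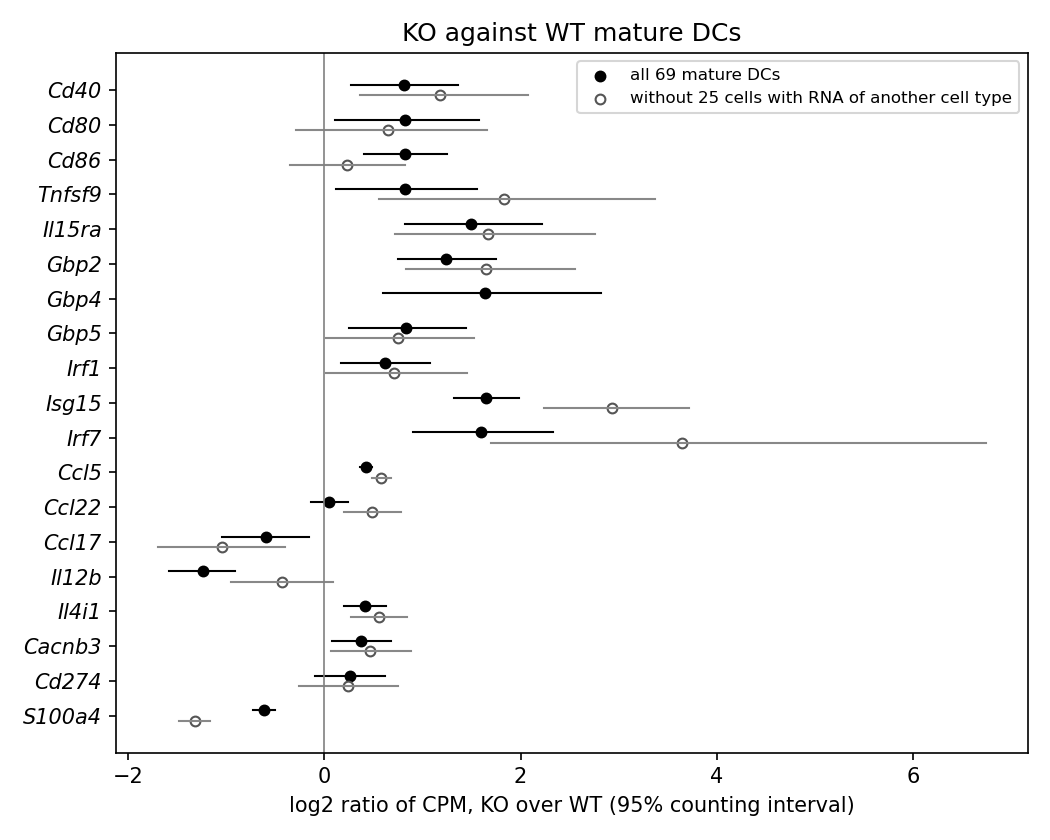
Log2 ratio of CPM, KO over WT members, for 19 genes with 95% counting intervals. Filled points hold all 69 members, and open points leave out the 25 members with at least 3 UMIs of markers of another cell type. Cd40, Il15ra, Gbp2, Isg15 and Irf7 lie above 0 in both, while Il12b is at -1.24 with all members and at -0.43 without those cells.

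Interferon-response genes were higher in KO members, but much of that came from a few cells. Of 17 type I interferon genes measured, of 19 in the files, 10 were higher and 0 lower, with a median log2 ratio of 1.59. They were Ifit1, Ifit2, Ifit3, Isg15, Rsad2, Oasl2, Irf7, Usp18, Rtp4 and Xaf1, products that restrict viruses or tune the interferon response. Those also named by rank below, Rsad2, Ifit2 and Ifit3, were called higher in KO in the cDC2 gate too, at 2.48, 1.69 and 1.61. In the cDC1 gate Rsad2 was called lower, at -0.79, and Ifit2 (0.47) and Ifit3 (0.10) were not called. Isg15, a ubiquitin-like modifier, had 714 CPM in KO and 228 CPM in WT members, a log2 ratio of 1.65 (1.32 to 1.98), with 38.2% of the KO UMIs in 1 cell. Summed over the list, the KO members ranged from 0.977 to 297 UMIs per 10000 with a median of 5.95, and the WT members from 0 to 71.6 with a median of 4.27. The medians were close and the highest KO cells stood apart: 3 cells held 59.9% of the KO UMIs of the list and 3 cells held 49.9% of the WT UMIs. Only 1 gene of the list was spread over enough cells for the stricter set, and it was not called. Without the members carrying other RNA 9 genes were measured and 9 were higher, Isg15 at 2.93. Of them 3, Ifit1, Ifit2 and Rsad2, had no UMI left in WT, so that their ratios are bounds at a floor of 3 UMIs. Ifit3, Oasl2 and Irf7 had 11.3 CPM each in WT and Xaf1 16.9 CPM, against 74.2 to 141 CPM in KO. The minimum of UMIs for measuring a gene applied to both libraries together. A gene with so few UMIs in WT was therefore measured only if it had many in KO, which favours higher calls in the count of 9.

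More of the interferon gamma genes passed the size rule. Of 16 measured, 14 were higher and 0 lower, with a median of 1.52. Gbp2, a guanylate-binding protein, had 253 CPM in KO and 107 CPM in WT members, a log2 ratio of 1.24 (0.75 to 1.75), with a UMI in 26 KO and 17 WT members. After thinning to 3000 UMIs Gbp2 was found in 48.7% of KO and 26.7% of WT members, against 17.9% of KO and 13.8% of WT cells in the T gate and 5.52% of KO and 2.90% of WT cells in the B gate. Irf1, a transcription factor of the response, had a log2 ratio of 0.62 (0.17 to 1.08), and 0.72 without the members carrying other RNA. Also higher were Gbp3, Gbp4, Gbp5, Gbp7, the GTPases Irgm1, Igtp, Iigp1 and Ifi47, the chemokines Cxcl9 and Cxcl10, and the inhibitor Socs1. In the cDC2 gate Gbp2 (1.15), Cxcl9 (1.46) and Cxcl10 (1.53) were called higher in KO as well. In the cDC1 gate Cxcl9 (1.07) and Cxcl10 (1.29) were called higher, and Gbp2 (-0.27) was not called. Per 10000 UMIs the list summed to between 1.43 and 76.1 in KO members with a median of 13.5, and to between 0 and 19.97 in WT members with a median of 9.27. Here too few cells held much of the total: 1 KO cell held 28.3% and 3 KO cells 47.4% of the KO UMIs, and 1 WT cell held 9.80% and 3 WT cells 26.2% of the WT UMIs. In the type I list 1 cell held 26.4% of the KO and 21.7% of the WT UMIs. In the stricter set 4 of 5 genes were higher and 0 lower, and without the members carrying other RNA 3 of 7 were higher and 1, Ciita, lower.

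Among the mature markers 4 of 23 outside the rule were higher in KO and 0 lower, with a median of 0.37, and the same 4 were called without the members carrying other RNA. For all genes measured the shares were 7.75% higher and 3.68% lower. Serpinb6b had 1181 CPM in KO and 515 CPM in WT members, a log2 ratio of 1.20 (0.97 to 1.42) and 1.37 without the members carrying other RNA. It had a UMI in 36 of 39 KO and 16 of 30 WT members, and after thinning in 89.7% of KO and 46.7% of WT members, against 2.27% of KO and 1.85% of WT cells in the B gate and 18.5% of KO and 14.0% of WT cells in the T gate. It has close relatives in the same gene cluster, so its counts are uncertain. In the cDC2 gate it was higher in KO too, at a log2 ratio of 2.37, and in the cDC1 gate it was not called, at 0.49. The other higher markers were Cd200, at 386 CPM in KO and 239 CPM in WT, Arl5c, and Apol7c, which 1 KO cell dominated. The rule genes, on which the members were chosen, went in different directions. Ccr7 had 2180 CPM in KO and 1168 CPM in WT, and Fscn1 1278 CPM in KO and 1535 CPM in WT. Ccl22 and Relb were not called, at 0.05 (-0.14 to 0.24) and -0.26 (-0.55 to 0.02).

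The genes of the stricter set with the interval farthest from equality were chosen after their values had been seen. Pik3r1, the regulatory subunit of PI3 kinase, had 414 CPM in KO and 157 CPM in WT members, a log2 ratio of 1.39 (0.99 to 1.81), with a UMI in 36 KO and 24 WT members. Ramp3 had 507 CPM in KO and 208 CPM in WT, a log2 ratio of 1.29 (0.94 to 1.65). In the cDC1 gate Ramp3 was called the other way, at -2.24 (-3.79 to -0.95), on 1.96 CPM in KO and 9.25 CPM in WT. In the cDC2 gate it was called higher in KO, at 0.92. The others higher were Serpinb6b, Grasp, the secreted regulator Fgl2, Resf1, the chromatin reader Sp140, Il15ra, Gbp2, Ass1, the enzyme that makes argininosuccinate, Sppl2a, an intramembrane protease, and Insl6, with log2 ratios of 1.17 to 1.75. All 12 were also higher without the members carrying other RNA. Serpinb6b, Fgl2, Il15ra and Gbp2 were called higher in KO in the cDC2 gate too.

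In the other direction Fabp5, a fatty acid binding protein, had 4044 CPM in KO and 7382 CPM in WT members, a log2 ratio of -0.87 (-0.95 to -0.79), and S100a4, a calcium-binding protein, 2254 CPM in KO and 3441 CPM in WT, a log2 ratio of -0.61 (-0.72 to -0.50). Both were lower without the members carrying other RNA too, at -1.27 for Fabp5 and -1.32 for S100a4. H2afz, a histone variant with a near-copy in H2afv, was lower as well, at -0.63, together with Gngt2, Ssr4, Mapkap1, Gng10, Ppp1cc, Mrpl52, Atp5mpl and H2afv. Without the members carrying other RNA H2afz, Gngt2, Gng10 and Mrpl52 were still called lower, whereas Ssr4 (-0.12), Mapkap1 (-0.58), Ppp1cc (-0.87), Atp5mpl (-0.64) and H2afv (0.09, opposite in sign) were not called. Fabp5 was called lower in KO in the cDC1 gate too, at -0.76, and Gngt2 in the cDC2 gate, at -0.97. Of the 174 genes higher in the stricter set 91 were also called higher without those members, and of the 46 lower 14 were also called lower.

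Cytokines and chemokines differed gene by gene, where 7.75% of all genes were higher and 3.68% lower in KO. Of 10 cytokine genes measured, 5 were higher and 1 lower, with a median of 0.64. Il12b was the lower one, at 222 CPM in KO and 522 CPM in WT members, a log2 ratio of -1.24 (-1.58 to -0.90). Il12b was not called without the members carrying other RNA, at -0.43. The WT members with the most Il12b, at 90 and 69 UMIs, were left out with 23 and 3 UMIs of pDC markers. Members with a UMI of Il12b fell from 13 to 8 in KO and from 8 to 5 in WT. The lost call therefore does not show that the difference came from RNA of another cell type. Il1b, Il15ra, Ebi3, which pairs with other cytokine chains, and the antagonists Il1rn and Il18bp were higher. Without those members Il15ra was still called, and Il1b (0.45) and Il1rn (1.22) were measured but not called. Ebi3 and Il18bp then had too few UMIs to be measured. Of 12 chemokines 3 were higher and 4 lower, with a median of 0.24. The higher ones were Ccl2, Cxcl9 and Cxcl10. The lower ones were Ccl17, Ccl9, Ccl6 and Cxcl2. With those members left out 6 were measured, of which Cxcl16 was higher and Ccl17 lower. Ccl17 had 154 CPM in KO and 233 CPM in WT, a log2 ratio of -0.59 (-1.04 to -0.15) and -1.04 without those members, with 38.5% of its KO and 30.4% of its WT UMIs in 1 cell.

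The inhibitory ligands differed in their calls. Cd274 was not called, at a log2 ratio of 0.26 (-0.09 to 0.62), and 0.24 without the members carrying other RNA. Pdcd1lg2 was not called over all members, at 0.42 (-0.19 to 1.04), but was called without those members, at 0.94 (0.05 to 1.93). Before thinning Pdcd1lg2 had a UMI in 23 of 39 KO and 14 of 30 WT members. After thinning it was found in 35.9% of KO and 10.0% of WT members, against 5.19% of KO and 6.65% of WT cells in the B gate and 6.32% of KO and 3.52% of WT cells in the T gate. The thinned shares come from 1 random draw, and the gap was smaller at full depth. Of 15 regulatory genes 2 were higher, Cd200 and Socs1, and 0 lower, with a median of 0.41. With those members left out 2 of 11 were higher, Cd200 and Pdcd1lg2, and 1 lower, Socs3. Of 21 NF-kB genes 2 were higher, the subunit Nfkb1 at 293 CPM in KO and 192 CPM in WT and the inhibitor Nfkbib at 178 CPM in KO and 100 CPM in WT, and 1 was lower, the co-regulator Bcl3. The median of that list was 0.29, and without those members 2 of 16 were higher, again Nfkb1 and Nfkbib, and 0 lower. Of 18 migration genes 1 was higher, Itga4 at 0.65 (0.37 to 0.93), and 0 lower, and it was also called without those members, at 0.81. Beside these counts, 7.75% of all genes measured were higher and 3.68% lower in KO. Without those members the shares were 10.8% higher and 2.82% lower. The counts of NF-kB and migration genes lie near these shares.

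Presentation genes had few calls. Over all genes 7.75% were higher and 3.68% lower in KO, and 10.8% higher and 2.82% lower without the members carrying other RNA. Of 19 class I genes 3 were higher, the peptide transporter subunit Tap2, the immunoproteasome subunit Psmb9 and H2-M3, and 0 lower, with a median of 0.33. Without the members carrying other RNA 4 of 18 were higher and 0 lower, and the genes were partly others: H2-M3 was still called, at 1.13, Tap2 (0.69) and Psmb9 (0.44) were not, and H2-K1 (0.68), Tapbp (0.85) and Pdia3 (1.42) were. Of 15 class II genes 0 were higher and 2 lower, with a median of -0.01. These were H2-Oa, at 29.7 CPM in KO and 95.8 CPM in WT, and H2-Ob, at 13.9 CPM in KO and 61.6 CPM in WT, the chains of the DM inhibitor DO. Without those members 2 of 12 were lower, H2-Oa at -2.26 and Ciita at -1.88, and 1 was higher, the protease Ctss at 0.61.

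The remaining lists had few calls or rested on few cells. Their counts stand beside 7.75% of all genes higher and 3.68% lower in KO. Without the members carrying other RNA those shares were 10.8% and 2.82%. Of 13 apoptosis genes Bcl2a1b and Cflar were higher and 0 lower, and of 7 pan-dendritic genes Zbtb46 was higher and Bcl11a lower. Without the members carrying other RNA Bcl2a1b and Cflar were still called, and of 5 pan-dendritic genes 0 were higher and 1, Spi1, lower. Among lineage genes Naaa was the 1 of 6 cDC1 genes higher, and S100a4 and Ccr2 were the 2 of 9 cDC2 genes lower. Without those members Irf8 and Id2 were the 2 of 3 cDC1 genes higher, and S100a4 was the 1 of 2 cDC2 genes lower. Of 17 uptake genes Clec4n, Fcgr1, Fcgr2b and Fcgr3 were higher and Cybb, Lyz2, Ctsd and Ctsl lower. Each of these 8 had at least 25% of its UMIs in 1 cell of a library. Without the members carrying other RNA all 8 had too few UMIs to be measured, so whether their calls hold there could not be told. Of 12 cholesterol genes Srebf2 was higher and Hmgcs1 and Idi1 lower, whereas without those members neither was called lower. Of 18 glycolysis genes Pfkp was higher and Gpi1 lower, with 0 of 12 called without those members. Of 16 heat shock and immediate early genes Hspa1a and Hspa1b, which are near-copies, Egr1, Klf2 and Klf6 were higher and Fos lower, and without those members Hspa1a, Klf2 and Klf6 were higher and 0 of 12 lower. Of 6 pattern recognition genes 0 were called, the most abundant being Irf5, Tmem173, Myd88 and Irak4, and without those members 0 of 2 were called. Of 10 proliferation genes 0 were higher and 6 lower, namely Mki67, Top2a, Birc5, Pcna, Rrm2 and Stmn1, and 3 cells held 72.3% of the WT UMIs of that list, against 36.8% in KO. Per cell the list did not follow the sum: the KO members had a median of 8.06 UMIs per 10000 and the WT members one of 4.90, and 18 KO and 8 WT members held at least 10 UMIs. With those members left out only Tubb5 was measured, and it was higher in KO, at 0.61.

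Ranked by the interval bound over all measured genes, the 12 genes highest in KO were Rsad2, Cxcl9, Ccl12, Ccl2, Ifit2, Cxcl10, C1qa, Lpl, Hspa1a, C1qb, Ifit3 and Ccl7. The 12 lowest were Hist1h2ap, H2-M2, Arg1, Ctsl, Fabp4, Hist1h1b, Hist1h2ae, Hmox1, Cxcl2, Stmn1, Ly6c2 and Chil3. All 24 had at least 25% of their UMIs in 1 cell of a library, and 21 had at least 50%, whereas 1705 of the 4669 measured genes had at least 25%. Rsad2, an antiviral enzyme, had 269 CPM from 7 KO members and 22.8 CPM from 3 WT members. Ccl2, a monocyte chemokine, had 799 CPM in KO, 77.0% of it in 1 cell, and 112 CPM in WT. C1qa, a complement chain typical of macrophages, had 174 CPM in KO, 65.9% of it in 1 cell, and 18.2 CPM in WT, all of it in 1 cell. Arg1, arginase of myeloid cells, had 7.91 CPM in KO and 192 CPM in WT, all of the WT UMIs in 1 cell. Histone genes are near-copies and are rarely caught by poly(A) priming, and H2-M2 shares sequence with other class I genes, so those counts are uncertain.

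**Figure D5:**
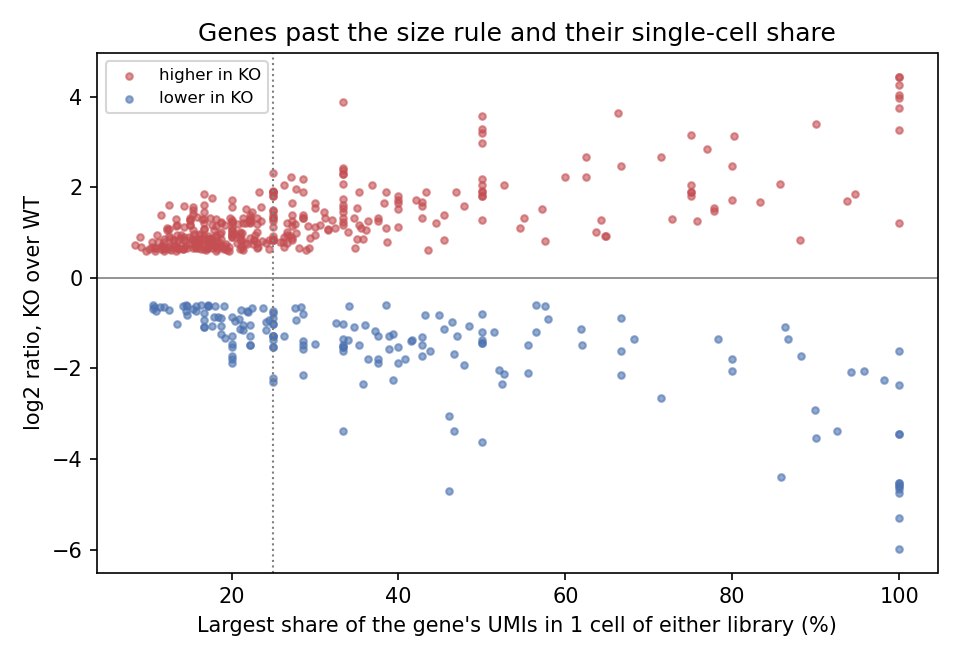
Log2 ratio of CPM, KO over WT members, against the largest share of a gene's UMIs held by 1 cell of either library, in percent, for the 534 called genes (higher in KO in red, lower in blue), with a dotted line at 25%. Of these genes 275 lie at or right of the line, and the 24 named by rank are all among them.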

How the data were processed

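The authors deposited 1 matrix per library of raw UMI counts per gene and barcode, from 10x Chromium 3' libraries, made with Cell Ranger 5.0.0 per the file headers. Cell Ranger, STAR and the mm10 build are named in the submitters' processing notes, with the annotation release not given in the sources used here. The libraries held 112544655 UMIs in KO and 98438084 in WT over 11398 KO and 11432 WT barcodes, of which 11131 KO and 11153 WT were kept. All 32285 features were used, and 32158 were placed on GENCODE M21 for coordinates.

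Counts were summed over gated cells and scaled to CPM (python 3.11.15, numpy 2.4.6, scipy 1.17.1, pandas 2.3.3, matplotlib 3.10.9). Log2 ratios carry exact conditional binomial 95% intervals, and a call needs a 1.5-fold difference with the interval excluding equality. It is a rule of size and no test, and a library at 0 was set to a floor of 3 UMIs. The script was tested on simulated data, in which UMIs were drawn independently and not clustered in single cells. That test therefore does not cover the intervals of genes held by few cells. Cells of under 3000 UMIs were left out of thinned shares, 250 KO and 131 WT cells in the T gate and 106 KO and 938 WT cells in the B gate. Shares have 95% Clopper-Pearson intervals. The members and the 30 gene lists were chosen with earlier results of these data known, and 5 listed genes were not matched. Named genes needed at least 50 UMIs over both libraries, 20 CPM or more in the higher one, and a level there of at least 0.1 times that of the gate where the gene was highest. They were ranked by the interval bound nearest 0, with 12 taken each way, without mitochondrial, ribosomal, haemoglobin, receptor-segment and clone-named genes. Some genes are not reported here. Of each list every other called member is named, or up to 4 with the most UMIs. Mature markers were taken with the 20 genes of largest CPM ratio to the cDC1, cDC2 and pDC gates, at 100 CPM or more with 5 CPM added. The T and B gates set beside member shares held T cells (at least 3 UMIs of Cd3d and Cd3e, no Cd79a) and B cells (at least 3 of Cd79a, no Cd3d or Cd3e). Their shares give a free-RNA level only for genes that these cells do not make, which was not tested. Serpinb6b, for 1, had 118 CPM in KO and 88.0 CPM in WT in the T gate, but 17.5 CPM in KO and 15.2 CPM in WT in the B gate. No doublet caller was run, and the lymphoid limits of the gate were the only such filter. The labels name no targeted gene, and the genotypes were therefore not checked against one.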

Additional observations from a re-analysis of the deposited data

Results flagged for a closer look

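Among the genes named by rank, 10 had a log2 ratio of KO over WT in mature dendritic cells that was opposite in sign, and called, in a conventional gate of the same libraries. In each case the difference was not tested, since each genotype has 1 library. Rsad2 was at 3.56 in members and -0.79 in cDC1, while in cDC2 it was at 2.48, called in the direction of the members. Ccl12 was at 3.39 in members, -4.19 in cDC1 and -1.09 in cDC2. Ccl2 was at 2.84 in members and -1.45 in cDC1, and Ccl7 at 1.85 in members and -1.07 in cDC1, with Ccl7 in cDC2 called at 0.84, as in the members. Ccl2 in cDC2 was not called, at -0.31. The complement genes C1qa and C1qb were at 3.25 and 2.67 in members, -2.39 and -1.90 in cDC1, and -0.78 and -0.72 in cDC2. Lpl was at 3.13 in members, -2.44 in cDC1 and -1.85 in cDC2. Arg1 was at -4.60 in members and 2.11 in cDC2, while in cDC1 it was at -2.53, called in the direction of the members. Hist1h1b was at -3.04 in members and 0.69 in cDC1, and was not called in cDC2, at -0.02. Ly6c2 was at -2.11 in members and 0.60 in cDC2, and was not called in cDC1, at -0.09. In all of these genes 1 cell held at least 46% of the member UMIs in a library, and the part of single cells in the difference was not tested.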

How the results depend on the processing

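The share of members kept its interval across equality under all 7 alternatives, with log2 ratios of -0.10 to 0.67. The count of genes higher in KO, 362, lay between 249 and 517 under 11 alternatives and was 174 among genes spread over cells. The count lower, 172, was less stable: 470 with at least 1 UMI of Fscn1 and Ccr7, 111 without members with any lymphoid, C1q or S100a8/9 UMI, 109 without the highest cell of each gene, 84 for genes of at least 50 UMIs, 334 for genes of at least 1 UMI, 74 without members carrying other RNA, and 46 among spread genes. Median-of-ratios scaling gave 259 higher and 255 lower and turned no named gene. Without members with any lymphoid, C1q or S100a8/9 UMI, the signs turned for Cxcl2 (4.13), Ly6c2 (2.27), Ccl9 (0.64), Ccl6 (1.23), Lyz2 (3.27) and Tcf4 (0.093). Without the tenth of members with most UMIs they turned for Ccl9 (0.64), Ccl6 (0.17) and Egr1 (-0.14), and without the highest cell of each gene for Apol7c (-1.45), Ccl6 (0.24) and Ccr2 (0.023). Pfkp turned (-0.39) in the gate with at least 1 UMI, and Ccl6 (0.60) and Tcf4 (0.24) without members carrying other RNA. The cause was not tested. The last alternative, the lymphoid-ignored share and the spread set were chosen after seeing the data. No paired analysis was possible because there is 1 library per genotype, so the groups share fewer than 2 replicate numbers. Depth limits genes under about 20 UMIs, which 69 cells leave unmeasured.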
